A study of Homo sapiens with 6 samples.

Results

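The genes described here are 10 components of the Notch pathway, chosen by symbol from the 60651 genes of each count table. They comprise the receptors *NOTCH1*, *NOTCH2* and *NOTCH3*, the ligands *JAG1*, *JAG2*, *DLL1* and *DLL3*, and the transcription factors *HES1*, *HES6* and *HEY1*. All 10 symbols matched exactly 1 identifier, 9 of the genes had enough reads to pass the filter on low counts, and *JAG2* did not. Gene-level values came from total RNA sequencing of 6 libraries of a human neuroblastoma cell line. Of these, 3 were labelled EtOH, the ethanol vehicle, and 3 were labelled Tet, for tetracycline, which the protocol gives as a treatment of 5 days.

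The labels described the cells in more than one way. The titles and the headers of the tables named IMR-5/75, a *MYCN*-amplified line, and a tag called the treatment a knockdown. The study describes IMR-5/75 cells with a tetracycline-inducible shRNA against *MYCN*, and its tetracycline-inducible *MYCN* expression model is in SK-N-AS cells. The protocol text instead gave SK-N-SH cells, kept as single clones, in which a tetracycline repressor controls an added *MYCN*. Both groups carried the same system and differed only in the agent added. The genes are therefore compared by label alone, and the direction in which the system should move *MYCN* is not assumed. *MYCN*, the gene the system was built to regulate, was at 158, 256 and 156 CPM (counts scaled to a common library size) in the EtOH libraries and at 196.6, 200.1 and 145.4 CPM in the Tet libraries, given here and throughout in the order of replicates 1, 2 and 3. The groups overlapped, and no change was detected (log2 fold change -0.07 ± 0.23 SE, adjusted p = 0.956 with edgeR).

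Notch signalling is a contact between neighbouring cells. A ligand of the Jagged or Delta family on one cell binds a Notch receptor on the next, ADAM proteases and then gamma-secretase cut the receptor, and its freed intracellular domain enters the nucleus. There it joins RBPJ and a Mastermind coactivator and switches on repressors of the HES and HEY families, which hold back proneural factors and so delay neuronal differentiation. In the developing sympathetic nervous system, from which neuroblastoma arises, and in other neural tissue, Notch activity keeps precursors undifferentiated or favours glial fates.

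The libraries held RNA of several defining genes of noradrenergic neuroblastoma and almost none of Schwann, endothelial or immune cells. Of 9 noradrenergic markers, 5 had a mean of at least 1 CPM, and the summed level of the list ranged from 556 to 656 CPM in EtOH and from 655 to 773 CPM in Tet. *TH* had at most 3 counts in every library. Of 10 mesenchymal markers, 9 had at least 1 CPM, with sums of 342 to 592 CPM and 328 to 492 CPM, while *COL1A2* had 0 counts in all 6. Sums were at most 5.59 CPM for Schwann markers, 0.753 CPM for endothelial and 1.02 CPM for immune markers, with *S100B*, *CDH5* and *CD3E* at no more than 3 counts per library. Pericyte markers summed to 51.9 to 62.9 CPM in EtOH and 66.2 to 107.9 CPM in Tet, with *RGS5* at 50.9 CPM or more and *PDGFRB* and *ACTA2* near 1 CPM or below. None of these 6 lists had a gene with an adjusted p under 0.05. Some single markers had an unadjusted p under 0.05. Among the noradrenergic factors *ISL1* was higher in Tet (log2 fold change 1.18 ± 0.27 SE, adjusted p = 0.142 with edgeR), as were *PHOX2A*, *GATA2* and *GATA3*. The mesenchymal factors differed in direction: *PRRX1* was lower in Tet (-1.02 ± 0.34 SE, adjusted p = 0.317 with edgeR), and *SNAI2* was higher (1.84 ± 0.70 SE, adjusted p = 0.389 with edgeR). *RGS5* was higher in Tet (0.58 ± 0.20 SE, adjusted p = 0.344 with edgeR). What part such cell states had in the results below was not tested.

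Library totals lay between 27933378 and 40498065 counts, at which 3 counts equal 0.0741 to 0.107 CPM. The mitochondrial share was 4.12% to 10.01% of counts and overlapped between the labels. EtOH replicate 2 and Tet replicate 2 lay together at one end of the first principal component of log2 CPM (44.7% of variance), along which the labels were mixed. The second (25.7% of variance) separated the labels, with EtOH scores from -39.1 to -34.7 and Tet scores from 26.4 to 48.1. All levels in CPM below are scaled by the trimmed mean of M-values (TMM), and levels that are compared between genes are TPM values, which also divide by exon length.

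*HES1* had the largest difference of the 9 genes tested, and its 250 upstream bases are shown because HES1 is a standard readout of the pathway. The sequence is that of RefSeq on GRCh38.p14, plus strand, chr3:194135898-194136147, 5′ to 3′. Capitals mark TGGGAA, the core letters recognised by RBPJ, and CACNAG, the N-box to which HES repressors themselves bind, on either strand.

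*HES1* upstream: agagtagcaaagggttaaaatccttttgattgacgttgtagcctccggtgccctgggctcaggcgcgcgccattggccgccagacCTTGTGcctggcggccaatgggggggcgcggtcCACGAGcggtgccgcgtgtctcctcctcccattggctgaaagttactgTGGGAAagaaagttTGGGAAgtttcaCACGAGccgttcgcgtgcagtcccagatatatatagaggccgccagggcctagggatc

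TGGGAA was found at 84 to 79 and at 70 to 65 bases before the start, both on the plus strand. CACNAG was found at 165 to 160 bases on the minus strand and at 132 to 127 and 58 to 53 bases on the plus strand. No match overlapped another. The E-box CACGTG, letters bound by MYC proteins, was not in this window. Searched in the same way on both strands, TGGGAA occurred in 20.8% of 35116 RefSeq promoter windows of 250 bases, CACNAG in 32.0% and CACGTG in 6.34%. Promoter windows were found for 7 of the 10 genes. Of the other 6 with a window, *NOTCH3* held 1 CACNAG, and *NOTCH1*, *NOTCH2*, *JAG1*, *JAG2* and *HES6* held none of the letters searched.

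The comparison of Tet with EtOH asked which parts of the pathway differed between the labels. None of the 9 genes tested had an adjusted p under 0.05 in edgeR, against 0.236% of the 22443 genes tested. At an unadjusted p under 0.05 there were 3 of 9, *HES1*, *JAG1* and *NOTCH2*, all lower in Tet, against 10.8% of all genes in either direction and 4.94% lower in Tet. The same 3 genes were those whose groups did not overlap, which held for 17.5% of all genes tested and, with Tet lower, for 8.29%. With limma-voom, too, 0 of 9 passed, against 0.258% of all genes. With DESeq2, the tool the study used, 1 gene passed, *HES1*, against 2.23%, and *NOTCH2* and *JAG2* received no adjusted p. *HES1* and *NOTCH2* reached the filter on low counts, 0.316 CPM in 3 libraries, in EtOH only, so they had to be lower in Tet to be tested, and these counts support nothing by themselves. In the opposite direction none of the 9 was called, against 5.83% of all genes with an unadjusted p under 0.05 and 9.21% without overlap. The share of all genes past the adjusted threshold was itself unsteady: it was 2.89% without EtOH replicate 2 and 3.77% without both replicates 2, but 0.00874% without EtOH replicate 1, 0.00422% without EtOH replicate 3, 0.0043% without Tet replicate 2 and 0% without Tet replicate 1 or 3.

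*HES1* (ENSG00000114315.4, chromosome 3, 194136148 to 194138732, plus strand) encodes a basic helix-loop-helix repressor that Notch induces directly in most tissues. The EtOH libraries held it at 0.502, 1.30 and 1.19 CPM and the Tet libraries at 0.0709, 0.197 and 0.176 CPM. Every Tet library was below every EtOH library, and the lowest EtOH value was over 2 times the highest Tet value. These levels rest on 18, 36 and 36 counts in EtOH and 2, 7 and 7 counts in Tet. The means were 0.997 ± 0.432 CPM and 0.148 ± 0.0678 CPM (SD, n = 3 each), with a log2 fold change of -2.68 (± 0.59 SE, adjusted p = 0.131 with edgeR). Summed over libraries, 90 counts in EtOH stood against 16 in Tet, a level 6.20 times higher in EtOH (exact 95% interval 3.62 to 11.3, counting error only). The call depended on the fit: the adjusted p was 0.00904 with DESeq2 and 0.0384 with edgeR on all genes with a count, where 0.746% of genes passed, and it reached 0.511 in fits that left out 1 library. The difference kept its direction in all 15 alternatives, from -3.03 to -2.40. These reuse the same counts, and *HES1* reached the filter on low counts in EtOH only, so the direction supports nothing by itself. In bulk RNA, fewer cells expressing a gene and less RNA per cell cannot be told apart.

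*HEY1* (ENSG00000164683.18, chromosome 8, 79762371 to 79767857, minus strand) encodes a related repressor, also a direct Notch target. It was at 1.87, 4.22 and 2.02 CPM in the EtOH libraries and at 0.567, 2.34 and 0.755 CPM in the Tet libraries. Each label had its maximum in replicate 2, and through it the labels overlapped, since Tet replicate 2 lay above EtOH replicates 1 and 3. The log2 fold change was -1.13 (± 0.58 SE, adjusted p = 0.545 with edgeR), and single libraries moved it widely, to -2.01 without Tet replicate 2 and to -0.65 without EtOH replicate 2. Without both replicates 2, a fit added after the data were seen, it was -1.53 with an adjusted p of 0.0673 (edgeR).

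*HES6* (ENSG00000144485.11, chromosome 2, 238238267 to 238240662, minus strand) is the atypical family member, which is not induced by Notch and works against HES1, promoting neuronal differentiation. It was at 0.781, 0.541 and 0.661 CPM in the EtOH libraries and at 0.638, 0.677 and 2.94 CPM in the Tet libraries. Only Tet replicate 3 lay outside the EtOH range. The log2 fold change of 1.11 (± 0.63 SE, adjusted p = 0.591 with edgeR) rested on that library, since it was -0.0071 without it. Tet replicate 3 exceeded 2 times the highest other library in 2.46% of all genes tested, and in the wider pathway list genes with this pattern included *MIB2* and *RFNG*.

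**Figure D1:**
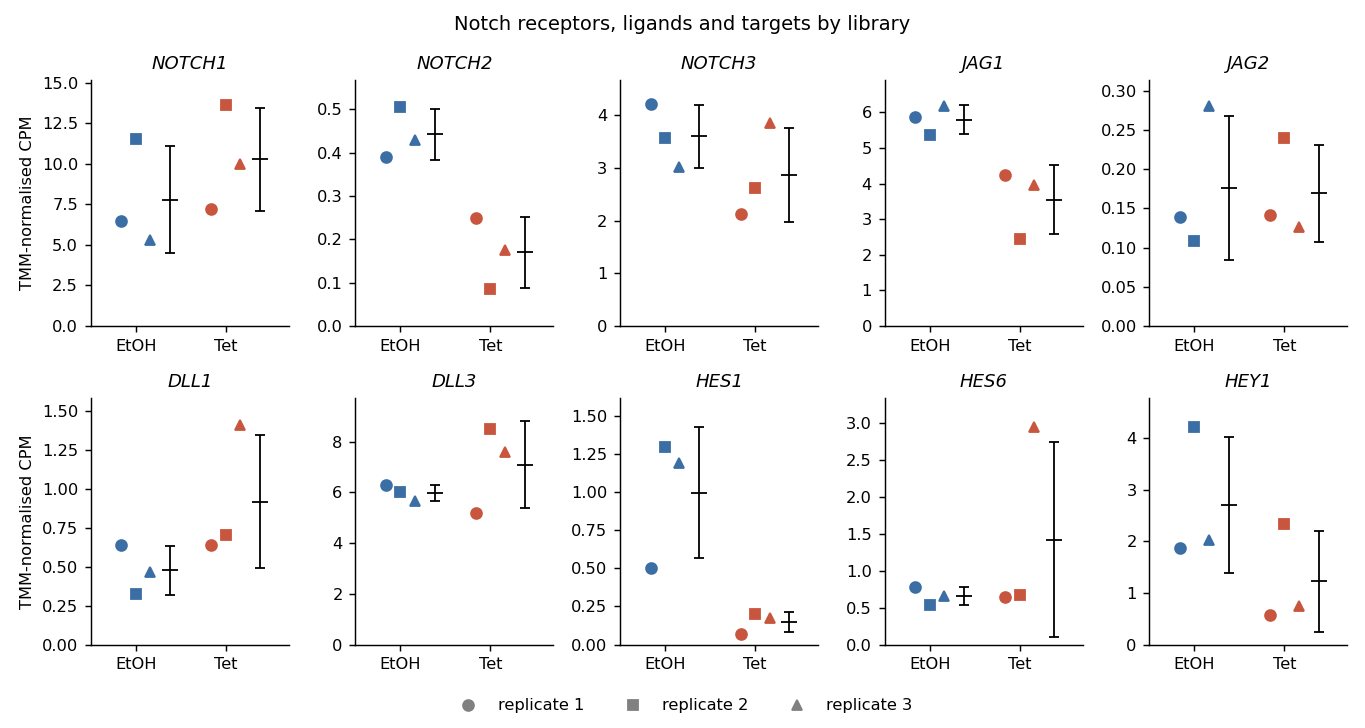
TMM-normalised CPM of the 10 genes, 1 panel per gene with its own axis from 0, in 3 libraries labelled EtOH (blue) and 3 labelled Tet (red). Marker shapes give the replicate number, and black bars the mean ± SD. The labels do not overlap for *NOTCH2*, *JAG1* and *HES1*, and the high Tet mean of *HES6* comes from replicate 3, at 2.94 CPM.

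Because *HES6* and *HES1* act against each other, their ratio was also taken within each library, where scaling between libraries cancels. Per length, *HES6* was at 1.64, 0.439 and 0.585 times the level of *HES1* in the EtOH libraries. In Tet replicates 1, 2 and 3 it was at 9.48, 3.61 and 17.6 times that level. Every Tet library was above every EtOH library. The mean log2 ratio was -0.42 ± 0.999 in EtOH and 3.08 ± 1.15 in Tet (SD, n = 3 each), a difference of 3.49 (exact two-sided permutation test, p = 0.1, the smallest value that 3 against 3 allows). This was 1 of 4 such within-library comparisons, and its Benjamini-Hochberg adjusted p was 0.133 (exact permutation test). The small *HES1* counts in Tet enter this ratio directly. *HES1* reached the filter on low counts in EtOH only, so the ratio is no support separate from *HES1*.

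Among the receptors, *NOTCH1* and *NOTCH3* made up nearly all of the receptor RNA and *NOTCH2* very little. NOTCH1 is the broadly expressed receptor, and NOTCH3 is best known from vascular smooth muscle and from mesenchymal-type neuroblastoma cells. *NOTCH1* (ENSG00000148400.13, chromosome 9, 136494433 to 136546048, minus strand) was at 6.49, 11.5 and 5.32 CPM in the EtOH libraries and at 7.23, 13.6 and 9.99 CPM in the Tet libraries. As with *HEY1*, both labels peaked in replicate 2, a pattern that held for 24.8% of all genes tested. *HES1* met it only through scaling, since its counts in replicates 2 and 3 were equal, at 36 in EtOH and 7 in Tet. The log2 fold change of *NOTCH1* was 0.40 (± 0.35 SE, adjusted p = 0.763 with edgeR). Leaving out 1 library moved it from 0.15, without Tet replicate 2, to 0.81, without EtOH replicate 2, where the adjusted p was 0.153 (edgeR).

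*NOTCH3* (ENSG00000074181.9, chromosome 19, 15159038 to 15200995, minus strand) was at 4.21, 3.57 and 3.01 CPM in the EtOH libraries and at 2.13, 2.62 and 3.85 CPM in the Tet libraries. The labels overlapped because Tet replicate 3 was above 2 EtOH libraries (log2 fold change -0.32 ± 0.31 SE, adjusted p = 0.791 with edgeR). This estimate was -0.16 without Tet replicate 1 and -0.59 without Tet replicate 3. *NOTCH2* (ENSG00000134250.20, chromosome 1, 119911553 to 120100779, minus strand) was at 0.391, 0.505 and 0.430 CPM in the EtOH libraries and at 0.248, 0.0846 and 0.176 CPM in the Tet libraries. All 3 Tet libraries were below all EtOH libraries, with a log2 fold change of -1.38 (± 0.54 SE, adjusted p = 0.409 with edgeR). The gene had 58 counts in all, so its true level is uncertain. Reads that do not align uniquely, such as any shared with its *NOTCH2NL* copies, were not counted, and their number was not tested.

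Per length, *NOTCH1* took 52.6%, 69.4% and 55.4% of the summed receptor level in the EtOH libraries and 70.8%, 79.3% and 65.6% in the Tet libraries. *NOTCH3* took nearly all the rest, 38.6% ± 8.83 in EtOH and 27.3% ± 6.66 in Tet (SD, n = 3 each). The *NOTCH2* share was 2.24% ± 0.500 in EtOH and 0.855% ± 0.618 in Tet, without overlap (exact two-sided permutation test, p = 0.1, adjusted p = 0.133, n = 3 each). Without division by exon length the difference in *NOTCH2* share was -2.44 in place of -1.38 percentage points. *NOTCH2* reached the filter on low counts in EtOH only and had 3 to 14 counts per library, so its share supports nothing by itself.

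Among the ligands, *DLL3* was the most abundant and *JAG1* the one that lay lower in every Tet library. *JAG1* (ENSG00000101384.12, chromosome 20, 10637684 to 10673999, minus strand) encodes a Jagged ligand that activates receptors on neighbouring cells and is itself a Notch target in several tissues. It was at 5.86, 5.36 and 6.18 CPM in the EtOH libraries and at 4.25, 2.44 and 3.95 CPM in the Tet libraries. The EtOH values lay close together, and the highest Tet library was below the lowest EtOH library. The means were 5.80 ± 0.416 CPM and 3.55 ± 0.972 CPM (SD, n = 3 each), with a log2 fold change of -0.71 (± 0.28 SE, adjusted p = 0.404 with edgeR). Across all 16 alternatives the difference lay between -0.87 and -0.50 and never passed the threshold, with adjusted p-values from 0.149 to 0.836 (edgeR and the other tools). An antisense gene covers 3.29% of its exon bases, and counting did not use the strand.

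*DLL3* (ENSG00000090932.11, chromosome 19, 39498895 to 39508481, plus strand) encodes a Delta-like protein that stays largely inside the cell, does not activate receptors on neighbours and inhibits Notch in the cell that makes it. It is known as a surface antigen of neuroendocrine tumours. It was at 6.29, 6.02 and 5.65 CPM in the EtOH libraries and at 5.18, 8.52 and 7.58 CPM in the Tet libraries. Tet replicate 1 was the lowest of the 6 libraries and Tet replicate 2 the highest, so the labels overlapped (log2 fold change 0.24 ± 0.25 SE, adjusted p = 0.809 with edgeR). Without Tet replicate 1 the *DLL3* estimate was 0.42, and without Tet replicate 2 it was 0.09.

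*DLL1* (ENSG00000198719.9, chromosome 6, 170282206 to 170306565, minus strand) is an activating Delta ligand, typically made by cells that are becoming neurons. It was at 0.642, 0.325 and 0.463 CPM in the EtOH libraries and at 0.638, 0.705 and 1.41 CPM in the Tet libraries. Tet replicate 1 fell within the EtOH range and Tet replicate 3 was far above it. The log2 fold change of 0.94 (± 0.49 SE, adjusted p = 0.555 with edgeR) was 0.49 without Tet replicate 3, and 9.69% of the exon bases are shared with *FAM120B* on the opposite strand. *DLL1* reached the filter on low counts in 3 Tet libraries and 2 EtOH libraries. *JAG2* (ENSG00000184916.9, chromosome 14, 105140982 to 105168824, minus strand), a second Jagged ligand, had 3 to 8 counts per library, with 16 in EtOH and 18 in Tet, and did not pass the filter on low counts. Without that filter its log2 fold change was -0.06 (± 0.86 SE, adjusted p = 0.994 with edgeR). A gene on its own strand shares 7.33% of its exon bases. At this depth the ratio of Tet to EtOH for *JAG2* was 1.02 (exact 95% interval 0.491 to 2.14, counting error only).

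Within the ligands, *JAG1* took 19.6%, 19.3% and 22.2% of the summed level per length in the EtOH libraries. It took 17.4%, 7.02% and 11.5% in the Tet libraries, so the labels did not overlap. The *JAG1* level itself enters this share, so the share is no support separate from that level. The difference of the means was -8.40 percentage points (20.4% ± 1.62 and 12.0% ± 5.23, SD, n = 3 each, exact two-sided permutation test, p = 0.1, adjusted p = 0.133), and -15.8 without division by exon length. *DLL3* held 74.7% ± 2.50 of the ligand level in EtOH and 80.1% ± 6.12 in Tet (SD, n = 3 each). The ratio of *DLL3* to *DLL1* ranged from 14.3 to 27.1 in EtOH and from 7.84 to 17.6 in Tet, with overlap (difference of log2 ratios -0.69, exact two-sided permutation test, p = 0.2). That difference was -0.40 without Tet replicate 3 and -0.44 without EtOH replicate 2.

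**Figure D2:**
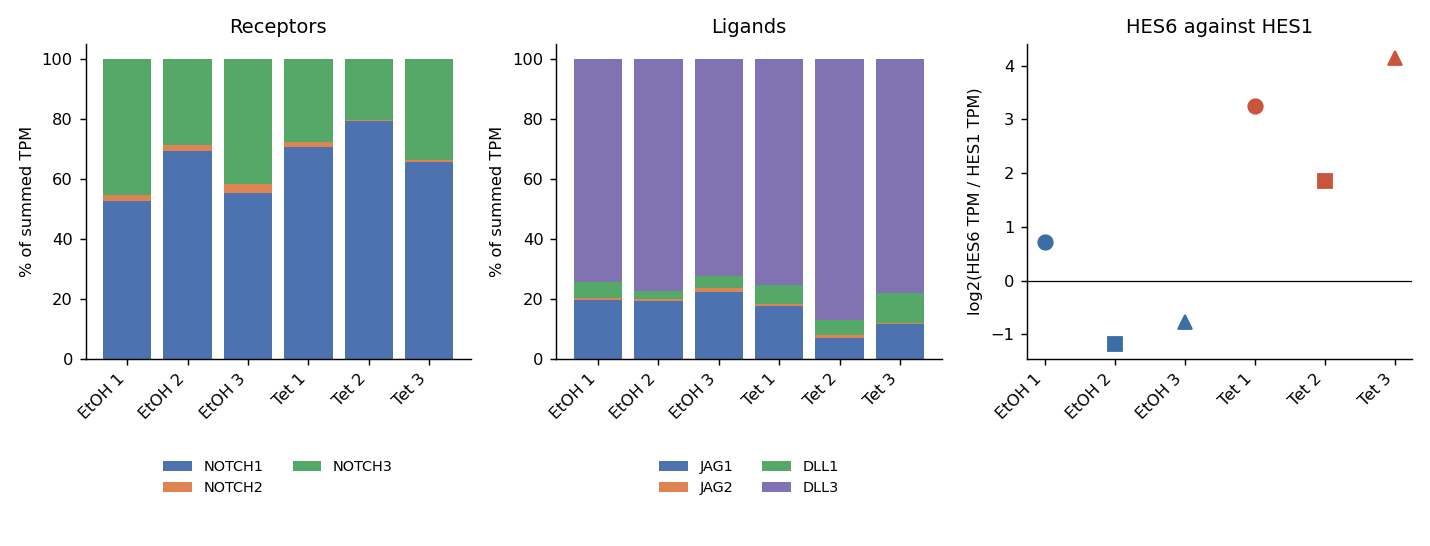
Left and middle, share of the summed TPM (in %) that each receptor and each ligand took in each of the 6 libraries. Right, log2 ratio of *HES6* to *HES1* TPM by library, EtOH in blue and Tet in red. The *JAG1* share lies between 7.02% and 17.4% in Tet and above 19% in EtOH, and every Tet library is above every EtOH library in the *HES6* to *HES1* ratio.

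On the TPM scale all 10 genes were low. *DLL3* led with a mean of 6.77 TPM over the 6 libraries (range 5.57 to 8.86), above every value of the next gene, *NOTCH1*, at 1.97 TPM (1.16 to 2.95). *HES6* followed with 1.39, *JAG1* with 1.38, *HEY1* with 0.997, *NOTCH3* with 0.932 and *HES1* with 0.777 TPM. The ranges of neighbours from *NOTCH1* down to *DLL1*, at 0.485 TPM, overlapped, so the order among them is not settled beyond the spread between libraries. *DLL1* was above *JAG2* (0.0735 TPM) in 6 of 6 libraries, and *JAG2* was above *NOTCH2* (0.0424 TPM) in 5 of 6. Exon length here counts all annotated exons of a gene, which lowers the TPM of genes with many isoforms.

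**Figure D3:**
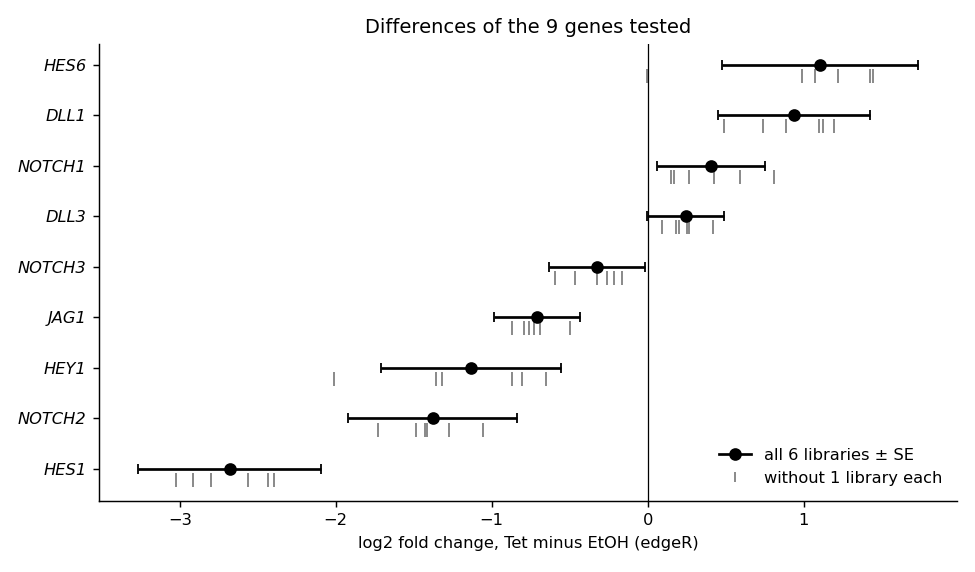
Log2 fold change, Tet minus EtOH, of the 9 genes tested, with points and bars giving the edgeR estimate ± SE over 6 libraries and grey ticks the estimates that each leave out 1 library. *HES1* lies at -2.68 with all 6 ticks between -3.03 and -2.40, while *HES6* returns to 0 without Tet replicate 3.

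The median log2 fold change of the 9 genes was -0.32, beside -0.0061 over all genes tested, with 4 estimates above 0 and 5 below. This median was not steady: it was -0.0375 over the genes with at least 10 counts in every library, -0.19 with no filter, -0.20 with DESeq2, -0.16 without Tet replicate 1 and -0.59 without Tet replicate 3. *HES1*, *NOTCH2* and *HEY1* differed most, and for each the genes with the closest pattern were sought, as the smallest root-mean-square difference of mean-centred log2 CPM over the 6 libraries among genes with at least 1 CPM. Closest to *HES1* were the non-coding gene ENSG00000248627 (0.378 log2 units) and the lipase gene *LIPG* (0.454). Closest to *NOTCH2* were *SNTB1* (0.0750), which encodes a syntrophin, and ENSG00000177359 (0.115). Closest to *HEY1* were ENSG00000251680 (0.256) and ENSG00000264475 (0.299). With 16719 or more genes compared over only 6 libraries, such likeness is a description, and at the low counts of *NOTCH2* the prior count of 2 flattens its pattern.

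The wider pathway was described with a list of 68 further genes grouped by role, of which 54 were tested. None passed the threshold in edgeR, against 0.236% of all genes. At an unadjusted p under 0.05 there were 8, against 10.8% of all genes. Of these 5 were higher in Tet, against 5.83%, and 3 lower, against 4.94%. Of the 54 genes tested, 5 reached the filter on low counts in all 3 libraries of 1 label only, among them *NRARP* and *DTX2*. With DESeq2, 1 gene had an adjusted p under 0.05, against 2.23% of all genes. The median log2 fold change was 0.10, and it was 0.0011 without Tet replicate 3 and 0.20 without Tet replicate 1. The machinery that makes, cuts and reads the receptor was led by abundant genes, and none of its genes passed the threshold. The ligand ubiquitin ligase *MIB1* was at 448 ± 60.4 CPM in EtOH and 408 ± 77.9 CPM in Tet, and the sheddase *ADAM10* at 307 ± 56.3 and 291 ± 46.2 CPM (SD, n = 3 each). *RBPJ*, the DNA-binding partner of the receptor, averaged 373 ± 70.9 CPM in EtOH and 397 ± 69.7 CPM in Tet with n = 3 each (log2 fold change 0.09 ± 0.19 SE, adjusted p = 0.929 with edgeR). The means of *RBPJ* differed by less than the SD within either label.

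Of the 8 other targets, 3 were tested, and all 3 estimates were below 0, too few to describe the targets as a set. *NRARP*, which encodes a small protein that Notch induces and that destabilises the receptor complex in turn, was at 0.363, 1.37 and 0.661 CPM in the EtOH libraries. It was at 0.319, 0.254 and 0.176 CPM in the Tet libraries, below all EtOH values. Its log2 fold change was -1.67 (± 0.60 SE, adjusted p = 0.363 with edgeR), on 71 counts in EtOH and 25 in Tet, and it reached the count filter in 3 EtOH libraries and 1 Tet library. Without EtOH replicate 2, its highest library, the estimate was -1.03. *HEY2* and *HEYL*, further HEY family repressors, gave -0.42 (SE 0.74) and -0.16 (SE 0.59), each smaller than its SE. *HEY2* was at 0.195, 0.180 and 1.02 CPM in the EtOH libraries and at 0.390, 0.226 and 0.428 CPM in the Tet libraries. Only EtOH replicate 3 lay above the Tet values of *HEY2*. *HES2* and *HES5* had 0 counts in all 6 libraries, *HES4* had 1, *HES3* had 4 and *HES7* had 27 in all.

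Among the nuclear activators, both tested genes with an unadjusted p under 0.05 encode histone acetyltransferases that work with Notch as well as with many other factors. *KAT2B* was at 61.4, 77.6 and 61.9 CPM in the EtOH libraries and at 105, 147 and 102 CPM in the Tet libraries, without overlap. Its log2 fold change of 0.82 (SE 0.19) had the lowest adjusted p of the list (edgeR, 0.154), and it passed the threshold in 4 of 16 alternatives, without EtOH replicate 2 (0.0302), without both replicates 2 (0.0125), with no filter on low counts (0.0465) and with the replicate block (0.00867). *CREBBP* was at 49.9, 52.7 and 47.3 CPM in the EtOH libraries and at 62.0, 89.8 and 59.3 CPM in the Tet libraries, also without overlap (log2 fold change 0.49 ± 0.19 SE, adjusted p = 0.394 with edgeR). The corepressor *SPEN*, which holds RBPJ targets silent, averaged 208 ± 34.2 CPM in EtOH and 156 ± 9.57 CPM in Tet with n = 3 each (log2 fold change -0.42 ± 0.16 SE, adjusted p = 0.409 with edgeR). The corepressor with the highest level per length, *HDAC2*, gave 0.32 (SE 0.17).

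In the other roles, *APH1B*, a subunit of gamma-secretase, was at 12.9, 21.2 and 13.3 CPM in the EtOH libraries and between 22.9 and 23.1 CPM in all 3 Tet libraries. Its log2 fold change was 0.55 (± 0.22 SE, adjusted p = 0.430 with edgeR), and 0.82 with an adjusted p of 0.0296 without EtOH replicate 2 (edgeR). *DTX2*, a Deltex ubiquitin ligase, gave 1.11 (± 0.45 SE, adjusted p = 0.427 with edgeR) at no more than 1.01 CPM in any library. It reached the filter on low counts in 3 Tet libraries and 2 EtOH libraries. The receptor ubiquitin ligase *ITCH* (-0.03, SE 0.18), the glucosyltransferase *POGLUT1* (-0.11, SE 0.15) and the Delta-like *DLK1* (0.21, SE 0.37), each the most abundant of its role per length, differed by less than their SE. *NOTCH4* had 0 counts in all libraries.

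Proneural factors stand downstream of HES and HEY repressors. *NEUROD1*, the proneural gene with the highest level per length, gave -0.02 (SE 0.28). *NEUROG2* was at 18.0, 14.6 and 18.9 CPM in the EtOH libraries and at 34.0, 32.7 and 23.9 CPM in the Tet libraries, with every Tet library above every EtOH library (log2 fold change 0.81 ± 0.20 SE, adjusted p = 0.175 with edgeR). *NEUROD4* went the other way, with 2.93, 2.09 and 2.45 CPM in the EtOH libraries and 0.957, 1.13 and 0.981 CPM in the Tet libraries. Its log2 fold change was -1.28 (± 0.31 SE, adjusted p = 0.161 with edgeR), and it was the 1 gene of the list past the threshold with DESeq2 (adjusted p = 0.0261).

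**Figure D4:**
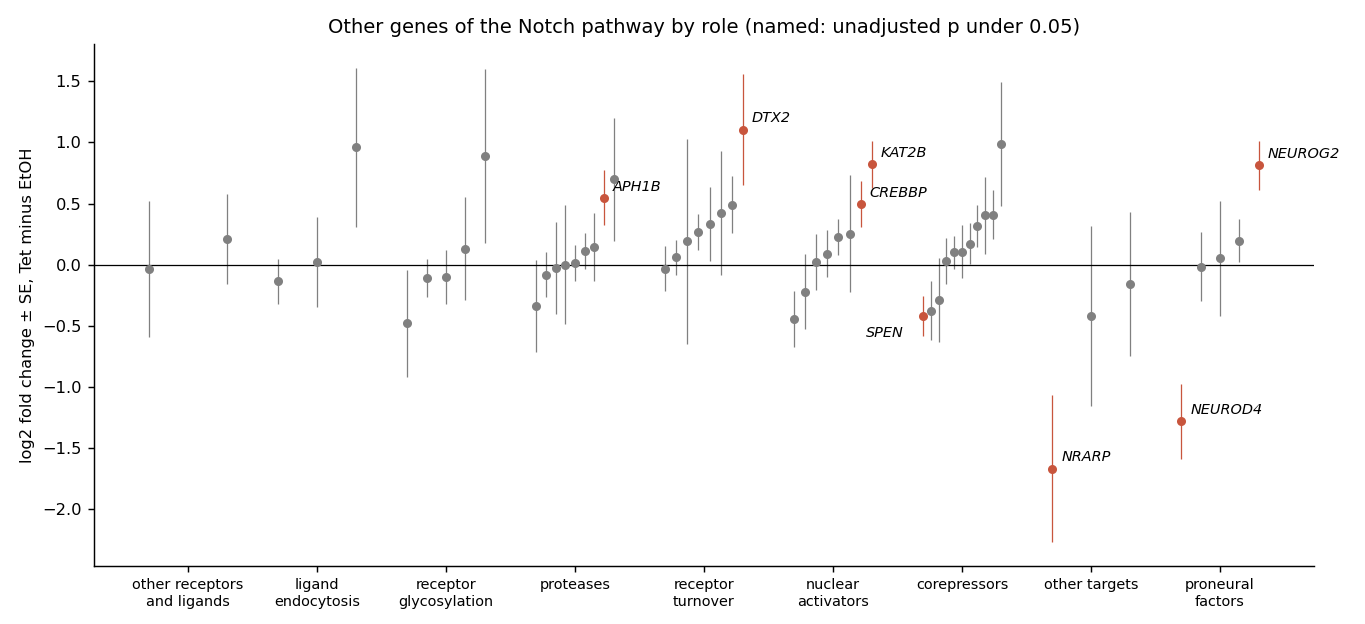
Log2 fold change ± SE, Tet minus EtOH (edgeR), of the 54 tested genes of the wider Notch pathway list, grouped by role on the horizontal axis. Red points have an unadjusted p under 0.05 and are named, from *NRARP* at -1.67 to *DTX2* at 1.11, and no gene passes the adjusted threshold.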

How the data were processed

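Estimated counts per gene were deposited by the authors, 1 table per library, unscaled. Reads were aligned with STAR, per the submitters' processing notes. Per the file headers, unique alignments were counted over exons with featureCounts 1.6.4, without strand, dividing a read pair evenly among overlapping genes. The processing notes give version 1.5.1 and the study's methods strand-specific options, and the headers were followed. Between 12.3% and 14.7% of values per library were not whole, so they were rounded. Coordinates are on GRCh38, counted from 1. Symbols matched 60437 of 60651 identifiers.

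Groups came from the titles. Genes were kept with filterByExpr, scaled by TMM and compared with edgeR 4.0.16 (R 4.3.3, quasi-likelihood), with Benjamini-Hochberg adjustment over all genes tested and a threshold of 0.05. The SE is the log2 fold change divided by the square root of F. Alternatives used DESeq2 1.42.0, limma 3.58.1, other scalings and filters, and fewer libraries. Fits were tested on simulated data. Within-library ratios used TPM from counts and exon length and exact permutation tests. The labels do not say that replicates are separate cultures, and p-values then measure only the spread between libraries. The genes and lists were chosen with earlier results of these data known. Genes named were the 10 chosen, *MYCN*, and, of the wider list, those with an unadjusted p under 0.05 or the highest TPM of their role. Any other gene was named after its values were seen. Some genes of the wider list are not reported here by name.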

Additional observations from a re-analysis of the deposited data

How the results depend on the processing

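Of 283 comparisons of 18 named genes with an alternative, 267 kept direction and side of the threshold, 12 passed it newly and 4 reversed. The reversals were *HES6* without Tet replicate 3 (-0.0071, against up to 1.44 without another library) and *MYCN* without both replicates 2 (0.13), without EtOH replicate 2 or without Tet replicate 3, whose log2 fold change ranged from -0.22 to 0.21 when 1 library was left out. The count of the 10 Notch genes past the threshold was 0 in edgeR and 1, *HES1*, with no filter on low counts, with DESeq2 and with the replicate block. That of the wider list was 0, and 1 with no filter or DESeq2, 2 with the replicate block, 3 without both replicates 2 (*KAT2B*, *APH1B* and *SPEN*) and 0 to 2 when 1 library was left out, the 2 being *KAT2B* and *APH1B* without EtOH replicate 2. Over all genes, 53 passed, against 302 with no filter, 499 with DESeq2, 675 with the replicate block, 874 without both replicates 2 and 0 to 692 when 1 library was left out. Why these counts differ was not tested.

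Replicates are numbered 1 to 3 under both labels. Deviations of same-numbered libraries had correlations of 0.0603, 0.510 and 0.219, all above 0. The main fit did not treat same-numbered libraries as pairs, and the fit with the replicate block did. With the replicate block, the adjusted p was 0.0245 for *HES1*, 0.00867 for *KAT2B* and 0.0447 for *NEUROG2* (edgeR), and the sign-flip test of same-numbered pairs gave p = 0.25, the smallest possible, for all 4 ratios and shares (exact test). Taken from CPM without length, the *NOTCH2* share differed by -2.44 and the *JAG1* share by -15.8 percentage points. *HES1*, *NOTCH2*, *JAG2* and *NRARP* rest on 106 counts or fewer each, which widens their counting intervals.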
